A study of Drosophila melanogaster with 2 samples.

Results

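The genes described here encode the machinery of regulated exocytosis, the calcium-triggered release of stored vesicles. They are nSyb, Syx1A, Snap25, Syt1, cpx, Rab3, Rph, Cadps, and IA-2, which are 9 of the 17737 genes in the count matrices. They were chosen by name from the gene annotation of those matrices, with earlier results of these data known. Their transcripts were followed in enteroendocrine cells of the adult Drosophila midgut, divided by the peptide hormone they carried, and in progenitors and enterocytes of the same guts.

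Both groups were virgin females that carried esgGal4, tubGAL80[ts], and UASGFP on a w background, and both were kept for 10 days at 29 °C. In esg[ts]/D30A flies, UAS-ImdD30A was present in addition, and in its place esg[ts]/+ controls are labelled +/+. ImdD30A is a form of the adaptor Imd that cannot be cleaved and blocks the IMD immune pathway, and esg-GAL4 drives it in intestinal progenitors. Each genotype was represented by 1 library made from 27 pooled guts, so the effect of the genotype cannot be told apart from that of the library.

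Cells release stored cargo when a vesicle docks at the plasma membrane and its SNARE proteins zip together with SNARE proteins of the target membrane. A calcium sensor triggers the fusion, and clamps, small GTPases, and priming factors set which vesicles are ready. Neurons use this machinery for small synaptic vesicles, and both neurons and endocrine cells use it for dense core vesicles, the storage form of peptides. Enteroendocrine cells are the endocrine cells of the gut epithelium. They carry the transcription factor Prospero and release peptide hormones, among them Tachykinin (Tk) and Allatostatin C (AstC), and in the fly midgut most of them are divided into a Tk type and an AstC type. Enterocytes, which absorb nutrients, and progenitors, which renew the epithelium, are not known for stored peptide release.

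Before filtering, the libraries held 4242 barcodes with 30383272 unique molecular identifiers (UMIs, counts of single captured transcripts) in esg[ts]/+ and 6322 barcodes with 53275921 UMIs in esg[ts]/D30A. A total of 3959 and 4083 cells were kept, with a median of 1235 and 1714 UMIs. The share of barcodes above the limit of 25% mitochondrial UMIs was 3.39% for the esg[ts]/+ library and 31.9% for the esg[ts]/D30A library, which sets the libraries apart. A total of 132 barcodes occurred in both libraries, and none of them was in an enteroendocrine cell. Clusters were formed without the 9 genes and named by markers. Enteroendocrine-like (EE-like) cells numbered 163 and 162, progenitor-like cells 556 and 513, enterocyte-like (EC-like) cells 2384 and 1777, and cells like the acid-secreting copper cells of the middle midgut 104 and 134, while 752 and 1497 cells stayed unnamed.

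The EE-like clusters were named by enteroendocrine markers, so high levels of these markers follow from the naming and are no check of it. All 11 enteroendocrine markers were detected in EE-like cells, where they summed to 105540 CPM (UMIs of a gene per 1000000 UMIs) in esg[ts]/+ and 131140 CPM in esg[ts]/D30A, against 259.8 and 737.7 CPM in EC-like cells. The gene of Prospero, pros, was found in 91.4% and 98.8% of EE-like cells. Of 8 neuron markers, 7 had UMIs in EE-like cells, with a sum of 617.7 and 571.5 CPM, and the glutamate transporter VGlut was at 0. Among them, the active zone gene brp stood at 363.6 and 287.9 CPM and the neuronal RNA-binding protein gene elav at 164.8 and 231.8 CPM, while elav was also at 35.1 and 41.6 CPM in progenitor-like cells. The neuron markers ChAT, at 61.6 and 35.7 CPM, and VAChT, at 20.1 and 8.40 CPM, were at 0 in Tk cells. The remaining neuron markers para, Gad1, and fne had at most 4 UMIs each in EE-like cells of either library. All 5 blood cell markers were at 0 in EE-like cells. Of 3 glial markers, repo was at 0, while Gs2 stood at 31.4 and 80.5 CPM and nrv2 at 10.1 and 2.80 CPM. Visceral muscle markers summed to 86.8 and 21.7 CPM, most of it from the troponin gene up, and were at 0 in Tk cells. Enterocyte markers summed to 18668 and 7135 CPM in EE-like cells. The part that these other cell types could have in the values below was not tested.

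Tk cells were EE-like cells with at least 3 UMIs of Tk and fewer than 3 of AstC, and AstC cells the reverse. There were 64 and 71 Tk cells and 87 and 77 AstC cells in esg[ts]/+ and esg[ts]/D30A. A further 11 and 8 cells had neither hormone at that threshold, and 1 and 6 had both. The median EE-like cell held 4624 UMIs in esg[ts]/+ and 8151.5 UMIs in esg[ts]/D30A, so shares of cells were also computed for every cell thinned to 2050 UMIs, which left out 32 and 10 shallower EE-like cells. All intervals below are exact 95% intervals of counting error. They contain no spread between flies or libraries, and with 1 library per genotype no test was possible.

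EE-like cells carried the release genes together. In 67.5% of esg[ts]/+ EE-like cells (110 of 163) and 90.7% of esg[ts]/D30A EE-like cells (147 of 162), at least 5 of the 9 genes had a UMI, and the median cell had 5 and 7 of them. These shares were not adjusted for the difference in depth between the libraries. None of the 556 and 513 progenitor-like cells reached 5, which with a limit of 3 cells for a count of 0 allows a share of up to 0.540% and 0.585% (exact upper limits 0.661% and 0.717%), although these cells held more UMIs than EE-like cells, with medians of 10192.5 and 18376. In EC-like cells, 13 of 2384 and 38 of 1777 cells reached 5.

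The vesicle and target-membrane SNAREs came first. nSyb encodes neuronal synaptobrevin, the SNARE of the vesicle membrane, and lies on chromosome 3L at 1630348 to 1637752 (minus strand, BDGP6.54, FBgn0013342). It stood at 535.9 CPM (486.2 to 589.3) in esg[ts]/+ EE-like cells and at 384.5 CPM (353.0 to 418.1) in esg[ts]/D30A EE-like cells. In EC-like cells it was at 2.91 and 4.14 CPM and in progenitor-like cells at 0.702 and 0.536 CPM. nSyb was thus 184-fold and 92.8-fold higher in EE-like than in EC-like cells. It was found in 74.2% and 85.2% of EE-like cells, and in 0.965% and 2.53% of EC-like cells, which is the reference for background here. This reference was uneven. The 13 and 38 EC-like cells with most of the release genes, described below, held 68.75% and 87.4% of the EC-like nSyb UMIs. In the other EC-like cells nSyb was at 0.933 and 0.573 CPM. The fold values above include the 13 and 38 cells. After thinning, the EE-like shares were 64.5% and 50.7%.

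Syx1A, which encodes syntaxin, a SNARE of the target membrane, stood apart from the other genes (3R, 24101600 to 24105763, minus strand, FBgn0013343). Its level in EE-like cells was 514.5 CPM (465.8 to 566.9) and 539.3 CPM (501.9 to 578.8), close to that of nSyb. Outside EE-like cells it did not drop to the level of the others, with 160.3 and 170.7 CPM in EC-like cells, 122.8 and 118.2 CPM in progenitor-like cells, and 436.4 and 341.2 CPM in copper cell-like cells. Syx1A was 3.21-fold and 3.16-fold higher in EE-like than in EC-like cells, and 1.18-fold and 1.58-fold higher than in copper cell-like cells. Its log2 ratios over EC-like cells were 1.68 and 1.66, beside medians of 1.36 and 0.97 for all genes with at least 20 UMIs. Over copper cell-like cells they were 0.24 and 0.66, below the medians of 0.94 and 0.78 for all such genes. Syx1A had a UMI in 63.1% and 79.3% of progenitor-like cells. At 2050 UMIs per cell these shares were 22.8% and 22.4%, beside 58.6% and 61.6% of EE-like cells and 21.5% and 23.3% of EC-like cells.

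Snap25 encodes the second target-membrane SNARE of the neuronal complex (3L, 24074180 to 24299205, plus strand, FBgn0011288). It was the lowest of the 9 genes in EE-like cells, at 12.6 CPM (6.03 to 23.1) and 12.6 CPM (7.47 to 19.9), which rested on 10 and 18 UMIs. These UMIs lay in 6.13% and 9.26% of EE-like cells, or 2.76% and 2.60% after thinning. In EC-like cells Snap25 had 3 and 5 UMIs, and in progenitor-like cells 0 and 1. Its paralog Snap24, a member of the general SNARE list below, was higher in the same EE-like cells, at 46.5 and 46.9 CPM.

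The calcium sensor and the clamp were both present in EE-like cells. Syt1 encodes synaptotagmin, the vesicle protein that senses calcium (2L, 2772327 to 2799979, minus strand, FBgn0004242). It was at 358.5 CPM (318.1 to 402.7) and 420.2 CPM (387.3 to 455.3) in EE-like cells, and at 2.42 and 4.66 CPM in EC-like cells. Complexin, encoded by cpx, binds the assembled SNARE complex and both holds it back and promotes its fusion (3R, 4280221 to 4304604, plus strand, FBgn0041605). Its level was 314.5 CPM (276.7 to 356.0) and 308.2 CPM (280.1 to 338.4) in EE-like cells against 1.88 and 4.05 CPM in EC-like cells. Syt1 was found in 69.9% and 90.7% of EE-like cells and cpx in 71.2% and 86.4%. After thinning, the EE-like shares were 50.6% and 56.9% for Syt1 and 48.0% and 45.5% for cpx. Taken singly, Syt1 and cpx each had a UMI in at most 3.38% of EC-like cells and 0.780% of progenitor-like cells of either library.

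The vesicle GTPase and its effector differed in level. Rab3 encodes a small GTPase of secretory vesicles (2R, 10721335 to 10729203, minus strand, FBgn0005586), and was at 262.9 CPM (228.5 to 301.1) and 316.6 CPM (288.1 to 347.2) in EE-like cells. No Rab3 UMI was found in the 7123079 UMIs of esg[ts]/+ progenitor-like cells, so it was at least 624-fold higher in EE-like cells, with 0 set to 3 counts over the class (the exact lower limit of the ratio was 503-fold). Rph encodes rabphilin, an effector that binds vesicle Rab proteins (X, 10749077 to 10757666, minus strand, FBgn0030230). It reached 76.7 CPM (58.7 to 98.6) and 104.4 CPM (88.3 to 122.5), below Rab3 in both libraries with no overlap of the intervals. Copper cell-like cells had no Rph UMI in either library.

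Of the genes tied to dense core vesicles, Cadps was sparse and IA-2 abundant. Cadps, the calcium-dependent activator protein for secretion that primes dense core vesicles, lies on chromosome 4 (1230837 to 1271759, plus strand, FBgn0053653). It was at 60.4 CPM (44.5 to 80.1) and 62.3 CPM (50.1 to 76.7) in EE-like cells, in 20.2% and 38.9% of them. IA-2 encodes a transmembrane protein of dense core vesicles that belongs to the protein tyrosine phosphatase family (2L, 1008378 to 1048053, minus strand, FBgn0031294). It was by far the highest of the 9, at 21281 CPM (20962 to 21604) and 27402 CPM (27131 to 27675). IA-2 was detected in 161 of 163 and 161 of 162 EE-like cells, and in 7.89% and 16.3% of EC-like cells. Its lowest EE-like cells had no UMI, the median cells were at 17619 and 26736 CPM, and the highest at 61323 and 83626 CPM.

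**Figure D1:**
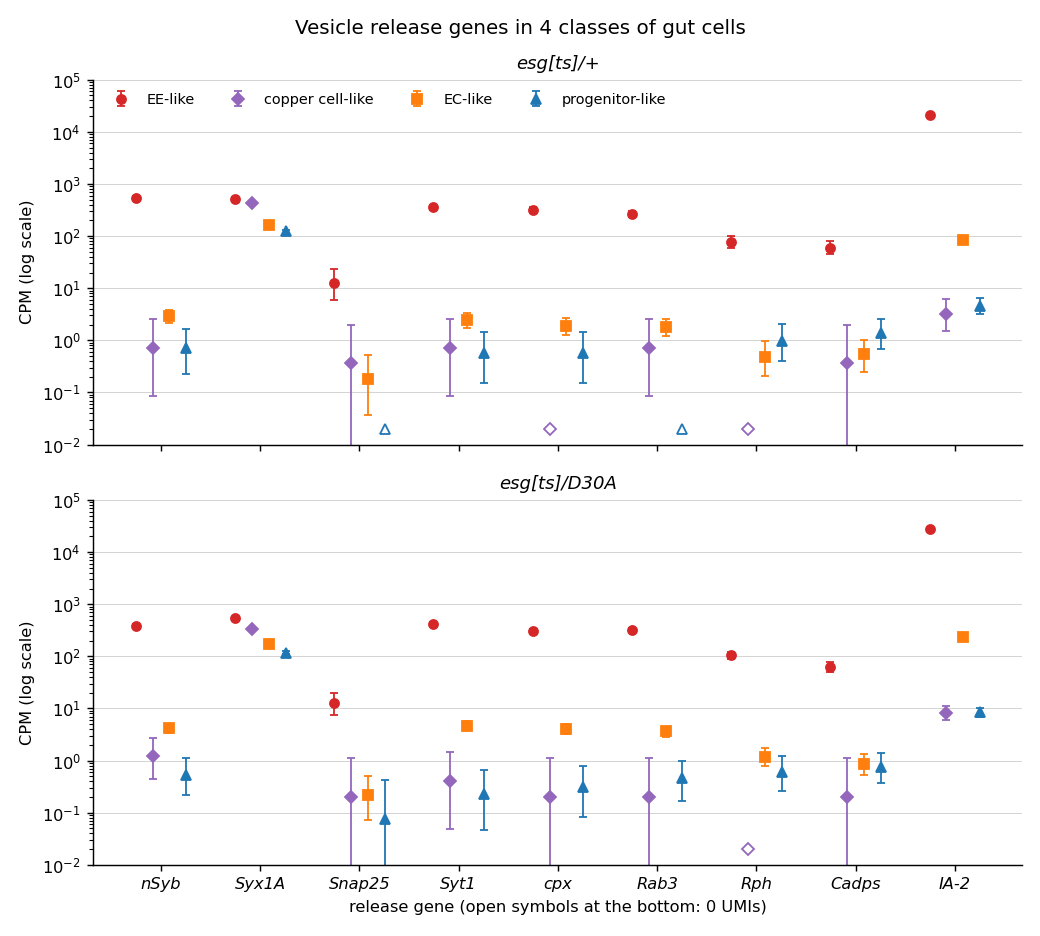
CPM of the 9 release genes (log scale) in EE-like, copper cell-like, EC-like, and progenitor-like cells of esg[ts]/+ (top) and esg[ts]/D30A (bottom). Points are UMIs summed over the cells of a class, bars exact 95% counting intervals, and open symbols classes with 0 UMIs. EE-like cells are highest for each gene in both libraries, and Syx1A is the gene for which the other classes come closest, at 436.4 and 341.2 CPM in copper cell-like cells.

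Ordered by level in EE-like cells, the genes ran from IA-2 through nSyb, Syx1A, Syt1, cpx, Rab3, Rph, and Cadps to Snap25 in esg[ts]/+. Neighbours nSyb and Syx1A, Syt1 and cpx, cpx and Rab3, and Rph and Cadps had overlapping intervals there. In esg[ts]/D30A, Syx1A and Syt1 were above nSyb, nSyb overlapped with Syt1, and Rab3 with cpx. Reads came from the transcripts' 3′ ends, so CPM needed no correction for gene length.

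Genes were counted when the groups compared held at least 20 UMIs together. Of the 9 genes, the esg[ts]/+ library allowed 8 and the esg[ts]/D30A library all 9 to be counted for EE-like over EC-like cells, and each of them was at least 2-fold higher in EE-like cells. Among all genes, 60.4% of 7062 and 49.1% of 7715 did the same, so a 2-fold excess sets few genes apart. At 32-fold, a limit chosen after the values were seen, 7 of 8 and 8 of 9 release genes remained against 4.80% and 5.02% of all genes, and Syx1A was the gene that did not pass. The median log2 ratio was 7.26 and 6.45 for the release genes and 1.36 and 0.97 for all genes. Over progenitor-like cells, 8 of 8 and 8 of 8 counted genes were at least 2-fold higher in EE-like cells (43.1% and 39.0% of all genes) and 7 of 8 and 7 of 8 at least 32-fold higher (5.31% and 6.56%), again without Syx1A. Medians there were 9.21 and 9.46 for the release genes and 0.80 and 0.66 for all genes.

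Other genes of neuronal and dense core release showed the same contrast. Of a list of 30 such genes, 29 were in the matrices and 19 and 20 could be counted, and all of those were at least 2-fold higher in EE-like than in EC-like cells, with median log2 ratios of 7.21 and 6.18. The 32-fold limit was passed by 12 and 12 of them. The priming factor unc-13 stood at 792.5 and 783.8 CPM in EE-like cells, above every one of the 9 genes but IA-2. Rim, which organises release sites, was at 418.9 and 432.8 CPM with log2 ratios of 8.17 and 6.69, its partner Rbp at 132.1 and 156.2 CPM, and cac, the calcium channel of release sites, at 312.0 and 437.8 CPM with log2 ratios of 8.01 and 7.03. The ratios of brp, a scaffold of release sites, were 7.42 and 6.52.

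Further synaptotagmins accompanied Syt1. Sytbeta was at 344.7 and 467.2 CPM, Sytalpha at 196.2 and 266.9 CPM, and Syt7 at 134.6 and 161.8 CPM, and the intervals of Sytbeta and Syt1 overlapped in both libraries. Synapsin, encoded by Syn and known for tethering synaptic vesicles, was at 73.0 and 94.6 CPM, and the GTPase gene Rab26 at 65.4 and 60.2 CPM. ICA69, whose protein acts in the formation of dense core vesicles, was at 30.2 and 37.1 CPM, and dimm, a transcription factor of peptide-secreting cells, at 66.7 and 64.4 CPM. Some genes of the list had smaller ratios. These were Rab2 (log2 ratios 3.04 and 2.78), the Sec1/Munc18 gene Rop (2.14 and 1.38), the SNARE-recycling genes Nsf2 (2.40 and 1.66) and alphaSnap (1.40 and 1.13), the chaperone gene Csp (1.59 and 1.09), Tomosyn (2.46 and 2.11), and btsz (2.71 and 1.64).

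General SNARE and tethering genes, which serve membrane traffic in every cell, differed less. Of 24 such genes, 13 of 23 counted in esg[ts]/+ and 9 of 24 in esg[ts]/D30A were at least 2-fold higher in EE-like than EC-like cells, with medians of 1.29 and 0.63, close to those of all genes, and none passed 32-fold. Those at least 2-fold higher in both libraries included Syx16 (3.35 and 2.72), Ykt6 (2.83 and 2.17), Snap24 (2.03 and 2.20), Syx5 (1.59 and 1.61), Syx7 (1.66 and 1.12), and Syx17 (1.29 and 1.14). Syb, the broadly used synaptobrevin, was at 439.0 and 505.0 CPM in EE-like cells with ratios of 0.81 and 0.47, so both synaptobrevins were abundant there while nSyb alone of the pair had a ratio of several log2 units.

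A few EC-like cells carried most of the release genes. The 13 and 38 EC-like cells with at least 5 of the genes had median depths of 20428 and 38700 UMIs, against 1058 and 1876 for other EC-like cells. The enteroendocrine markers pros and Tk, which had no part in choosing these cells, were higher in them than in other EC-like cells. For pros the levels were 149.3 and 177.1 CPM, against 4.91 and 4.39 CPM in the other EC-like cells. In EE-like cells pros was at 1936 and 1944 CPM. The 13 and 38 cells held 45.1% and 79.2% of the pros UMIs and 29.7% and 70.3% of the Tk UMIs of EC-like cells. Of the release genes, by which they were chosen, they held 68.75% and 87.4% of the nSyb UMIs and 50% and 83.2% of the Syt1 UMIs. For IA-2 the shares were 35.5% and 75.6%, and for Syx1A 3.02% and 14.0%. The trypsin gene alphaTry, an enterocyte marker, was at 3186 and 18690 CPM in them and at 37160 and 22693 CPM in the other EC-like cells.

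Apart from Syx1A, the levels of the release genes in EC-like cells were at most 1.73% of those in EE-like cells. For nSyb the percentage was 0.542 and 1.08, for Syt1 0.676 and 1.11, for IA-2 0.402 and 0.841, and for Snap25, the highest apart from Syx1A, 1.44 and 1.73. For Syx1A it was 31.2 and 31.7. Enteroendocrine markers spread more widely, with 0.450 and 0.993 for pros, 0.40 and 0.814 for Tk, 0.251 and 0.541 for AstC, 0.103 and 0.294 for Orcokinin, and 0.0958 and 0.0669 for NPF. Whether free transcripts, doublets, or expression gave the low values was not tested.

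Tk and AstC cells were compared within each library to ask whether the release genes differ between the hormone types. IA-2 was at 33668 CPM (32994 to 34352) in Tk cells and 14709 CPM (14370 to 15055) in AstC cells of esg[ts]/+, and at 41232 CPM (40682 to 41788) and 19689 CPM (19382 to 19999) in esg[ts]/D30A. The Tk cells were higher by 2.29-fold and 2.09-fold, or log2 ratios of 1.19 (1.15 to 1.24) and 1.07 (1.04 to 1.10). The median Tk cell was at 32613 and 40936 CPM and the median AstC cell at 9265 and 20008 CPM.

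Pooled over all EE-like cells, the core fusion genes differed little between Tk and AstC cells. The log2 ratio of Tk over AstC cells was 0.03 and −0.09 for nSyb, 0.05 and 0.15 for Syt1, −0.21 and −0.06 for Syx1A, 0.20 and 0.25 for cpx, and 0.08 and −0.18 for Rab3, and each of these intervals included 0. Rph was at 70.9 and 74.3 CPM in Tk and AstC cells of esg[ts]/+, but at 144.3 and 77.8 CPM in esg[ts]/D30A, a log2 ratio of 0.89 (0.39 to 1.40). Cadps was lower in Tk cells of esg[ts]/+, with 8 UMIs (28.4 CPM) against 39 UMIs (80.5 CPM) and a log2 ratio of −1.51 (−2.81 to −0.39). In esg[ts]/D30A the Cadps ratio was 0.18 (−0.50 to 0.85). Snap25, with 4 and 6 UMIs in Tk and 6 and 11 in AstC cells, was too sparse to be counted.

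Past 2-fold, 1 of 8 and 1 of 8 counted release genes were higher in Tk cells (IA-2 in both libraries), beside 7.73% and 9.66% of all genes. Lower in Tk cells were 1 of 8 and 0 of 8 (Cadps in esg[ts]/+), beside 10.0% and 7.61%. The counts were near these backgrounds, and the medians were 0.04 and 0.16 for the release genes and 0.03 and 0.18 for all genes. The IA-2 count in esg[ts]/D30A lay close to the limit, and with a cell filter of 500 genes and 10% mitochondrial UMIs it was 0. When cells were classed by single transcripts in place of clusters, the IA-2 log2 ratio was −0.07 in esg[ts]/+. That setting added 13 cells to the 62 EE-like Tk cells, which brought 681128 UMIs to the 279865 UMIs of the EE-like cells and held IA-2 at 782.5 CPM.

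**Figure D2:**
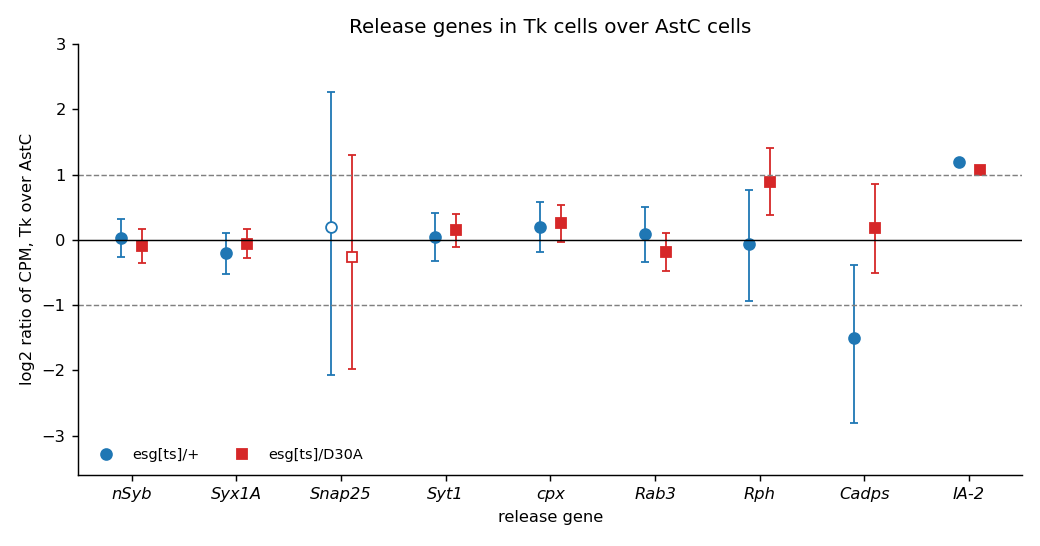
Log2 ratio of CPM in Tk cells over AstC cells for the 9 release genes in esg[ts]/+ (circles) and esg[ts]/D30A (squares). Bars are exact 95% counting intervals, dashed lines mark 2-fold, and open symbols mark Snap25, which had too few UMIs to be counted. IA-2 lies above the upper dashed line in both libraries at 1.19 and 1.07, and Cadps at −1.51 in esg[ts]/+ lies below the lower one.

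EE-like cells with neither hormone also carried the release genes. They numbered 11 and 8, with 24553 and 54798 UMIs altogether, so their intervals are wide. IA-2 was at 6965 CPM (5960 to 8090) and 15512 CPM (14486 to 16590), below Tk and AstC cells of the same library. Syx1A was at 977.5 CPM (626.3 to 1454) in esg[ts]/+ and 638.7 CPM (444.9 to 888.3) in esg[ts]/D30A. nSyb was at 407.3 and 200.7 CPM, and Syt1 at 407.3 and 346.7 CPM. For Syt1 these intervals, 195.3 to 749.0 and 208.8 to 541.5 CPM, contained the levels of Tk and AstC cells. The 6 esg[ts]/D30A cells with both hormones had IA-2 at 20433 CPM, near the level of AstC cells.

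EE-like cells formed 4 clusters, which differed in hormones and in IA-2. Cluster 18 held 93 and 100 cells, most of them AstC cells. Cluster 23 held 27 and 22 cells with NPF, the gene of neuropeptide F, at 138253 and 141995 CPM. Cluster 25 held 19 and 25 cells, all of them Tk cells, and cluster 26 held 24 and 15 cells with Orcokinin at 220539 and 353810 CPM. IA-2 stood at 46251 CPM (44911 to 47621) and 51498 CPM (50518 to 52492) in cluster 25, the highest, and at 6995 CPM (6513 to 7502) and 6080 CPM (5632 to 6555) in cluster 26, the lowest. Clusters 18 and 23 lay between, at 18897 and 24489 CPM and at 23907 and 29005 CPM. This order was the same in both libraries.

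Single cells showed the same order. All cells of cluster 25 were at or above 33391 CPM of IA-2, with medians of 45323 and 48052 CPM, and all cells of cluster 26 were at or below 21151 CPM, with medians of 5204 and 5582 CPM, so these clusters did not overlap in either library. Cluster 18 was the widest in esg[ts]/+, from 0 to 48219 CPM with quartiles of 6692 and 26077 CPM.

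Peptide hormones took different parts of the totals, 3.07% and 4.89% of UMIs in cluster 25 and 23.7% and 37.3% in cluster 26. With the UMIs of 9 hormone genes left out of the totals, a calculation added after the values were seen, IA-2 was at 47718 and 54144 CPM in cluster 25 and at 9165 and 9698 CPM in cluster 26. The order of the 4 clusters stayed as it was. In cluster 18, which held Tk and AstC cells side by side, IA-2 was at 31786 CPM in 18 Tk cells and 16901 CPM in 65 AstC cells of esg[ts]/+, and at 39755 CPM in 25 Tk cells and 21907 CPM in 62 AstC cells of esg[ts]/D30A. The log2 ratios there, 0.91 (0.84 to 0.98) and 0.86 (0.82 to 0.90), were smaller than over all EE-like cells and below 2-fold. Of nSyb, Syt1, Syx1A, cpx, and Rab3, only Syt1 in esg[ts]/D30A had an interval there that excluded 0, at 0.43 (0.08 to 0.77).

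**Figure D3:**
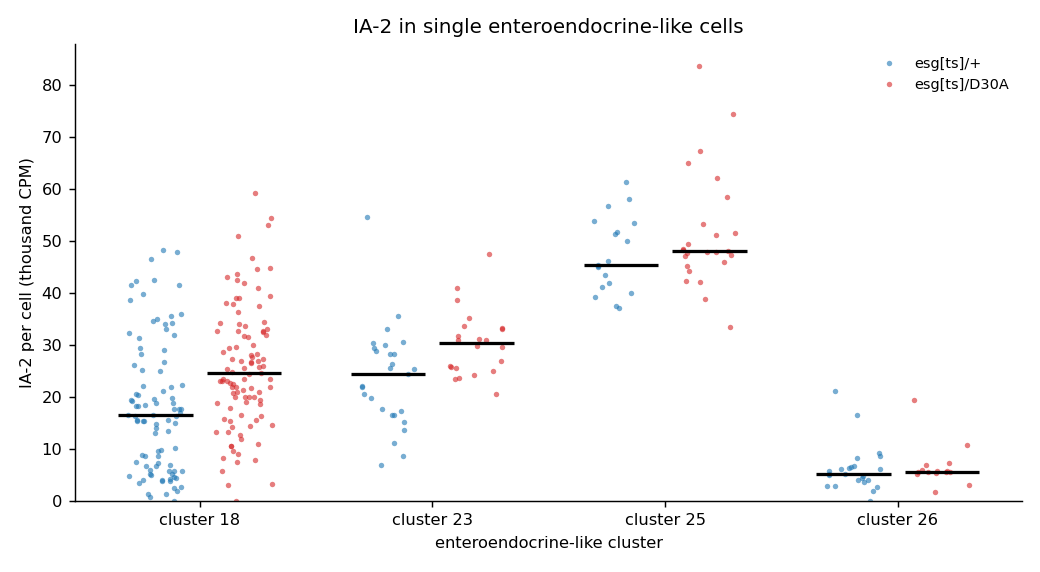
IA-2 in single EE-like cells (axis in units of 1000 CPM, from the cell's own UMIs) by cluster, with esg[ts]/+ cells in blue and esg[ts]/D30A cells in red. Each point is 1 cell and the black lines are medians, which run from 5204 and 5582 CPM in cluster 26 to 45323 and 48052 CPM in cluster 25.

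Cluster 26 also had the lowest nSyb, at 357.3 CPM (255.3 to 486.6) and 188.1 CPM (116.4 to 287.5), against 578.4 CPM (511.9 to 651.1) and 419.1 CPM (379.1 to 462.2) in cluster 18. For Syx1A, clusters 23 and 26 were low and clusters 18 and 25 high. Its levels were 313.3 and 303.0 CPM in cluster 23 and 303.7 and 313.4 CPM in cluster 26, against 601.6 and 590.5 CPM in cluster 18 and 563.9 and 602.5 CPM in cluster 25. On this scale the same clusters were low or high in both libraries. Rab3 was at 151.9 and 116.4 CPM in cluster 26 and at 293.4 and 351.2 CPM in cluster 18. Syt1 varied less, from 286.4 to 389.6 CPM among clusters of esg[ts]/+ and from 331.3 to 441.1 CPM among those of esg[ts]/D30A. These levels depended in part on the hormones in the totals. Without the hormone UMIs, nSyb in cluster 26 was at 468.2 and 299.9 CPM, about level with the 476.0 and 319.3 CPM of cluster 25 and below the 625.0 and 471.7 CPM of cluster 18. Syx1A in cluster 26 was then at 398.0 CPM (275.6 to 556.1) and 499.9 CPM (348.2 to 695.3), and its interval overlapped that of cluster 25 in both libraries and that of cluster 18 in esg[ts]/D30A. Rab3 in cluster 26 was at 199.0 CPM (115.9 to 318.6) and 185.7 CPM (98.9 to 317.5), still the lowest of the 4 clusters. These Rab3 intervals overlapped those of the other clusters, except cluster 18 in esg[ts]/D30A. Syt1 in cluster 26 was the highest of the 4 clusters on that scale, at 479.9 and 528.5 CPM, with intervals that overlapped those of the other clusters.

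The genotypes were compared to ask whether release genes of enteroendocrine cells differ when IMD is blocked in the progenitors that give rise to them. None of the 9 genes differed by 1.5-fold in either direction in all EE-like cells, where 15.5% of 5794 genes were higher and 13.2% lower by that margin in esg[ts]/D30A. The median log2 ratio was 0.07 for the release genes and −0.02 for all genes.

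Counting intervals lay away from 0 for IA-2, Syt1, Rab3, and, barely, Rph on the higher side and for nSyb on the lower side. IA-2 was higher in esg[ts]/D30A with a log2 ratio of 0.36 (0.34 to 0.39), and nSyb lower with −0.48 (−0.66 to −0.29). The ratio was 0.23 (0.02 to 0.44) for Syt1, 0.27 (0.03 to 0.51) for Rab3, 0.44 (0.0045 to 0.90) for Rph, 0.07 (−0.11 to 0.24) for Syx1A, −0.03 (−0.26 to 0.20) for cpx, 0.05 (−0.48 to 0.58) for Cadps, and 0.00 for Snap25. These intervals hold for counting error, and the spread between libraries of 1 genotype is not known. With cells classed by transcripts, the IA-2 ratio was −0.21 and the nSyb ratio −1.0. Under the other alternatives, IA-2 ran from 0.33 to 0.47 and nSyb from −0.54 to −0.40. Over all settings, Syt1 ran from −0.30 to 0.27, Rab3 from −0.24 to 0.31, and Rph from −0.02 to 0.51, so each took both signs.

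The lower nSyb was seen in both hormone types. It was at 549.7 and 375.1 CPM in Tk cells of esg[ts]/+ and esg[ts]/D30A, a log2 ratio of −0.55 (−0.86 to −0.24), and at 539.0 and 399.2 CPM in AstC cells, a ratio of −0.43 (−0.67 to −0.19). It was also lower in each of the 4 clusters. As a share of nSyb and Syt1 UMIs together, which does not depend on the totals, nSyb made up 59.9% (56.2 to 63.5) of the esg[ts]/+ cells' UMIs and 47.8% (44.9 to 50.7) of the esg[ts]/D30A cells' UMIs. Syt1 itself was higher in esg[ts]/D30A EE-like cells, with a ratio of 0.23, so this share combines both changes.

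In Tk cells, 2 of 8 counted genes were at least 1.5-fold higher in esg[ts]/D30A (20.8% of all genes) and 0 lower (12.7%). These were Rph, at 70.9 and 144.3 CPM with a log2 ratio of 1.02 (0.30 to 1.81), and Cadps, at 28.4 and 65.4 CPM with a ratio of 1.205 (0.07 to 2.53). In AstC cells, 0 of 8 genes passed in either direction (14.9% and 17.9%), with Rph at 74.3 and 77.8 CPM and Cadps at 80.5 and 57.8 CPM, a ratio of −0.48 (−1.13 to 0.17). Several hormone transcripts differed as well, with log2 ratios of esg[ts]/D30A over esg[ts]/+ in all EE-like cells of 1.12 for Tk, 0.88 for AstC, and 0.90 for Dh31. For NPF it was −0.32, and for pros 0.01. AstA, Mip, and CCHa2 were also higher in esg[ts]/D30A. Orcokinin was level, at 34818 and 34861 CPM, and CCHa1 was lower, at 7290 and 5049 CPM. Summed enterocyte markers differed as well, with 18668 and 7135 CPM in EE-like cells, 21773 and 8525 CPM in Tk cells, and 16281 and 6461 CPM in AstC cells of esg[ts]/+ and esg[ts]/D30A. The part of either in the release gene values was not tested.

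**Figure D4:**
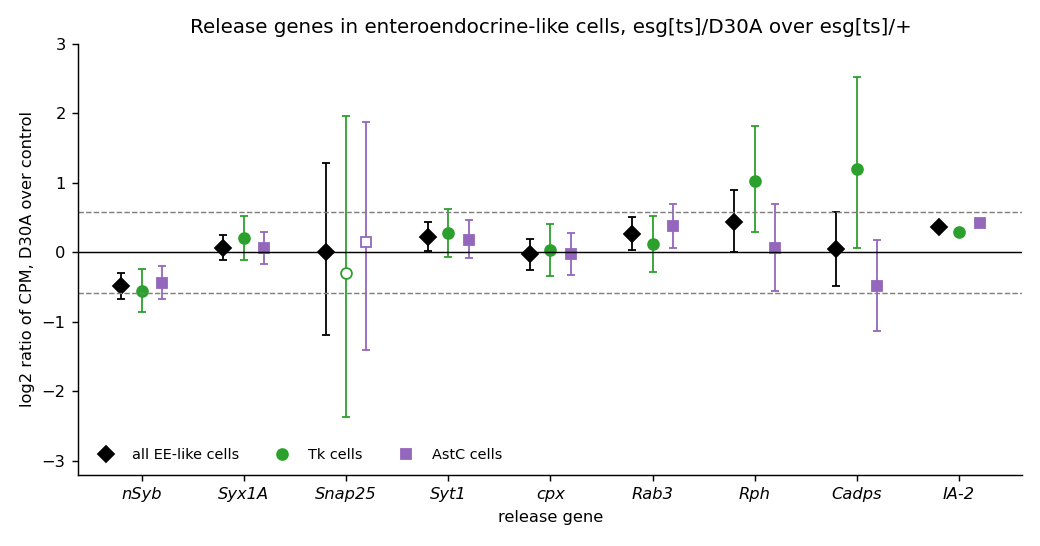
Log2 ratio of CPM in esg[ts]/D30A over esg[ts]/+ for the 9 release genes in all EE-like cells (diamonds), Tk cells (circles), and AstC cells (squares). Bars are exact 95% counting intervals, dashed lines mark 1.5-fold, and open symbols mark values with too few UMIs to be counted. nSyb lies below 0 in all 3 sets (−0.48, −0.55, and −0.43), and Rph and Cadps lie above the upper line in Tk cells.

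Summed over all EC-like cells, the direction was upward for most of the genes. Of 8 counted there, 6 were at least 1.5-fold higher in esg[ts]/D30A, beside 38.8% of all genes, whose median log2 ratio was 0.43. IA-2 had a ratio of 1.43 (1.34 to 1.51), while Syx1A stood at 0.09. The 13 and 38 EC-like cells with most of the release genes, chosen by those genes, held 35.5% and 75.6% of the IA-2 UMIs. In the other EC-like cells, IA-2 was at 56.7 CPM in esg[ts]/+ and 61.7 CPM in esg[ts]/D30A. There nSyb (0.933 and 0.573 CPM), Syt1 (1.24 and 0.859), and Cadps (0.311 and 0.239) were lower in esg[ts]/D30A. Higher were cpx (1.18 and 1.48), Rab3 (0.622 and 0.907), and Rph (0.249 and 0.286). The summed enteroendocrine markers in all EC-like cells were higher in esg[ts]/D30A as well, from 259.8 to 737.7 CPM. Their part in the release gene values was not tested.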

How the data were processed

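Single-cell RNA sequencing of midguts (10x Chromium, 3′ ends, 1 library of 27 guts for each genotype) was analysed. The deposited values are raw UMI counts by gene and barcode that the authors obtained from Cell Ranger 3.0, and the submitters' processing notes also name Seurat 3.1.1. The genome build of the counts is not given in the sources used here, so FlyBase identifiers were looked up in Ensembl release 115 (BDGP6.54) for positions. The 9 genes and the gene lists were chosen with earlier results of these data known. Groups were taken from the labelled genotype.

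Cells needed 200 or more detected genes and no more than 25% mitochondrial UMIs, and those with the highest Scrublet scores (scanpy 1.11.5) were removed at 0.8% per 1000 barcodes, which took out 139 and 218 barcodes. The automatic threshold of the caller marked 0 barcodes and was not used. The libraries were integrated and clustered at a resolution of 0.8 on 30 dimensions of 2000 variable genes, without the 9 genes, by Seurat 5.3.0 under R 4.3.3 with Matrix 1.6.5. A cluster was named when at least 3 markers of 1 class were found in 10% or more of its cells and exceeded the remaining cells by 1.5-fold, and stayed unnamed where other markers led among its 10 leading genes or where its depth was low. The naming thresholds were chosen with the clusters in view. Counts were summed for each class and library and given as CPM with exact Poisson intervals, ratios with exact conditional binomial intervals, and shares with Clopper-Pearson intervals, at 95%. Ratios and thinning were tested on simulated data. Named are all 9 genes, the listed companions at least 2-fold apart in both libraries with at least 20 UMIs, the marker checks, and the 5 closest profiles, and Syb and alphaTry were named after their values were seen. Alternatives were other filters, resolutions, class definitions, scalings, UMI minimums, and hormone thresholds. Clustering seeds 2 and 3, the removal of shared barcodes, and totals without hormones were chosen after seeing the data. Sums and intervals were computed in Python 3.11.15 with pandas 2.3.3, scipy 1.17.1, and numpy 2.4.6, and plots drawn with matplotlib 3.10.9. Bulk RNA sequencing was not analysed here.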

Additional observations from a re-analysis of the deposited data

Results flagged for a closer look

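Cadps had opposite signs in the hormone types when the genotypes were compared. The log2 ratio of esg[ts]/D30A over esg[ts]/+ was 1.205 in Tk cells, from 28.4 to 65.4 CPM, and −0.48 in AstC cells, from 80.5 to 57.8 CPM. The difference between these ratios was not tested, since each genotype had 1 library. The interval in AstC cells, −1.13 to 0.17, included 0, and the level in esg[ts]/+ Tk cells rested on 8 UMIs.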

How the results depend on the processing

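Of the values for single genes, 795 moved by less than their interval under the alternatives, 111 moved by more, and 1 that was past its fold limit changed sign. Over all settings, 20 of 61 single-gene ratios took both signs, all of them in Tk over AstC cells or between genotypes. The IA-2 ratio of Tk over AstC cells in esg[ts]/+ was −0.072 when cells were classed by transcripts. Of the counts, 192 stayed within 1.5 times and 20 did not. The number of release genes at least 2-fold higher in Tk cells of esg[ts]/D30A, 1 as reported, was 0 without doublet removal, with 500 genes and 10% mitochondrial UMIs, without a cell filter, with libraries merged, with all variable genes, with median-of-ratios scaling, and with hormone UMIs left out, and 2 with classes by transcripts and with means over cells. In esg[ts]/+, classes by transcripts gave 0 higher and 5 lower, and a minimum of 50 UMIs gave 0 lower. Between genotypes, classes by transcripts gave 2 lower genes in EE-like cells. General SNARE genes at least 2-fold higher in EE-like than EC-like cells numbered 13 in esg[ts]/+ as reported but 8 (transcripts), 3 (median-of-ratios), and 8 (means over cells), and 9 in esg[ts]/D30A as reported but 4 (transcripts) and 4 (median-of-ratios). Release genes found in at least 50% of EE-like cells numbered 6 and 7, against 3 in esg[ts]/+ with at least 2 UMIs and 4 in esg[ts]/D30A after thinning. Apart from the cells added by transcripts, the cause was not tested. The Cadps ratio of Tk over AstC cells in esg[ts]/+ ran from −2.68 to −1.01. No paired analysis was possible because each genotype has 1 library. Depth limits Snap25 and Cadps most.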

Other observations

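Over 14 points, which were 7 sets of cells (Tk, AstC, both, neither, progenitor-like, EC-like, and copper cell-like) in 2 libraries, the profiles closest to that of the release genes among 2655 other genes were those of Rim, Appl, CG42817, sm, and dysc, with Pearson correlations of 0.998, 0.996, 0.993, 0.990, and 0.989 on log2(CPM + 10). The points share libraries and differ strongly between EE-like and other cells, so the correlations are given as a description. Appl, the fly homolog of the amyloid precursor protein gene, was at 387.5 and 383.8 CPM in EE-like cells and at 2.79 and 4.75 CPM in EC-like cells. The release genes' own correlations ran from 0.997 for Syt1 to 0.667 for Snap25, with 0.809 for Syx1A.

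Progenitor-like cells with a pros UMI, 17 cells of esg[ts]/+ and 32 cells of esg[ts]/D30A, carried few release transcripts. They had 0 and 1 UMIs of nSyb, 0 and 0 of Syt1, and 2 and 11 of IA-2. IA-2 was at 9.16 CPM (1.11 to 33.1) and 16.4 CPM (8.17 to 29.3) in them, against 4.49 and 8.07 CPM in progenitor-like cells without pros. Syx1A was at 119.0 and 98.3 CPM, close to its level in all progenitor-like cells.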
